A study of Drosophila melanogaster with 2 samples.

Results

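The genes described here are the small nucleolar RNA (snoRNA) genes of Drosophila melanogaster, read against a map of Engrailed-GFP binding in whole embryos. The rule used the annotation and no measured value: it took every gene with the Ensembl biotype snoRNA on the 6 main chromosome arms, 269 of 18164 annotated genes. The 16 genes named scaRNA, which encode guides of the Cajal body, carry the same biotype and are included. Binding was mapped by chromatin immunoprecipitation and sequencing of embryos aged 0 to 16 h, pooled male and female, of strain 3T-GFP with an insertion targeting en. The line stably expresses the homeodomain protein Engrailed with GFP at its C-terminus, and the deposited description names an anti-GFP antibody, while the antibody field reads en. The sources used here do not name the promoter that drives the fusion. There was 1 group with 2 biological replicates, numbered 1 and 3, and no control library was analysed here. Whole embryos were used, so a region cannot be placed in a cell type.

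Most snoRNAs of animals are cut from introns. The host gene is transcribed by RNA polymerase II, the intron is released by splicing, and the guide RNA is trimmed out of it and packed with 1 of 2 sets of core proteins. Box C/D guides direct 2'-O-methylation of ribosomal and spliceosomal RNA and carry the boxes C (TGATGA) and D (CTGA) near their ends. Box H/ACA guides direct pseudouridylation and end shortly after the trinucleotide ACA. Many host genes encode ribosomal proteins or translation factors. Others, the Uhg genes of the fly, are noncoding, and the introns hold the product.

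The sequences of the members were compared with the classes in their names. Of 109 genes named as box C/D guides (79 bp median length), 77 had TGATGA within the first 20 bases and 102 had CTGA within the last 20. Of 114 genes named as H/ACA guides (140 bp median length), 0 had TGATGA in the first 20 bases, and 106 had ACA exactly 3 bases from the end. The names of 30 further genes gave no class. A pair of C/D guides from ribosomal protein introns and an H/ACA guide are shown to make the classes visible, from the RefSeq release 6 genome in dm6 coordinates, 5′ to 3′ on the strand of the gene. Capitals mark TGATGA and CTGA in the C/D guides and ACA in the H/ACA guide. The first is at 3L:8601473-8601552 on the plus strand (intron of RpL14), the next at 3L:3222475-3222541 on the minus strand (intron of RpL28) and the last at 3R:20822610-20822749 on the plus strand (intron of RpS20).
snoRNA:U49:66Da: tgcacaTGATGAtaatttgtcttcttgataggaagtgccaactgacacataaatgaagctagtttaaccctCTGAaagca
snoRNA:Or-CD11a: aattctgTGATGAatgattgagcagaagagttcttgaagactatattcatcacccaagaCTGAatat
snoRNA:Psi18S-1295: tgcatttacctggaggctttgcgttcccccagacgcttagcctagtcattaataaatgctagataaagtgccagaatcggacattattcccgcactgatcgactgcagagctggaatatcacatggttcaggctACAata

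Next to these guides stood the promoters of their hosts, and there the Engrailed-GFP summits lay. The 80 bases shown for each of 9 hosts run from 50 bases before the annotated transcription start site (TSS) nearest to the summit to 30 bases from it onward, on the strand of the host. They show 7 ribosomal protein hosts with a pyrimidine run at this TSS beside RpL36A, a ribosomal protein host without one, and CG1142. RpL30 and RpS29, not printed, also had no run of 8 bases at this TSS, with longest runs of 7 and 6 bases. Capitals mark the longest run of C and T where it reached 8 bases, and any match to TATCGATA (the DNA replication-related element, DRE) or to GGTCAC on either strand. The coordinates are in dm6: RpL14 3L:8600956-8601035 (plus strand), RpL13A 3R:5624424-5624503 (plus), RpS20 3R:20822131-20822210 (plus), RpS4 3L:13041751-13041830 (plus), RpL17 X:6744209-6744288 (minus), RpL28 3L:3222931-3223010 (minus), RpL27A 2L:4458288-4458367 (minus), RpL36A 2L:8042880-8042959 (minus) and CG1142 3R:7473752-7473831 (minus).
RpL14: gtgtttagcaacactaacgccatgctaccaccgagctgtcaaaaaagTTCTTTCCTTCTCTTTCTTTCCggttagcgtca
RpL13A: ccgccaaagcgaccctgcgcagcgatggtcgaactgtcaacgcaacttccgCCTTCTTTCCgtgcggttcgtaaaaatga
RpS20: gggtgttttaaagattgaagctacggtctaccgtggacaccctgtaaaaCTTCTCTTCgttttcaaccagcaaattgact
RpS4: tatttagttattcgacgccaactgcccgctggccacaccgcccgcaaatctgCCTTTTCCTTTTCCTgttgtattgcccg
RpL17: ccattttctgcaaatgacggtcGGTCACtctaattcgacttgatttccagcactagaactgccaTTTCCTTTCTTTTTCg
RpL28: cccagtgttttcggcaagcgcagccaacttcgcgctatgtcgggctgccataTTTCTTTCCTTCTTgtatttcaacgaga
RpL27A: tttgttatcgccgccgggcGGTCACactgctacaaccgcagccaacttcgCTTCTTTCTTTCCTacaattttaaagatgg
RpL36A: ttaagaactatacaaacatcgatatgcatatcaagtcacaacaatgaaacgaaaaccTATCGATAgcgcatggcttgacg
CG1142: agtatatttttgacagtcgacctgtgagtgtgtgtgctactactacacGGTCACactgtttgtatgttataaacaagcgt

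Each replicate and the pool had a deposited list of 30000 regions, reaching down into background, and a shorter list of 2226 optimal peaks came from the authors' irreproducible discovery rate (IDR) procedure. Every region carries a signal value and a summit, its point of highest enrichment. In the IDR list the pooled signal ran from 65.1 to 1022, in units that the sources used here do not name. Ranks count from 1 at the highest signal within each list of 30000 regions, or within the IDR list for pooled values of IDR peaks. Read depth was unknown from the lists. With 1 group, no test between conditions could be made, and the counts below stand beside the same counts over other genes as descriptions.

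An IDR summit lay within 1000 bp of 35 of the 269 snoRNA genes, or 13%, while 14.3% of all 18164 annotated genes had one. The members' share was thus near the share of all genes, and by itself it is no result about them. The order depended on the window: with 500 bp the shares were 3.72% of snoRNA genes and 12.2% of all genes, and with 2000 bp they were 27.5% of snoRNA genes and 18.1% of all genes. The share was 6.9% for tRNA genes (20 of 290), 3.12% for snRNA genes (1 of 32), 7.42% for other noncoding RNA genes and 16.4% for protein-coding genes. Longer genes present a larger window: the median length was 134 bp for snoRNA genes and 1656 bp for all genes. Of the bases of the main arms, 3.15% lay within 1000 bp of an IDR summit. No IDR summit fell inside a snoRNA gene. The nearest was 108 bp away and the median distance among the 35 members was 690 bp. By the class in the name, 18 of 109 C/D guides, 13 of 114 H/ACA guides, 2 of 16 scaRNAs and 2 of the 30 genes without a named class had a summit. The last members inside the window were snoRNA:Psi28S-1175a at 980 bp, snoRNA:Psi28S-3327a at 985 bp and snoRNA:hts-a at 987 bp. The first outside were snoRNA:Psi28S-2996 at 1032 bp, snoRNA:Me28S-A982a at 1037 bp and snoRNA:Me28S-G2703a at 1072 bp.

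The 35 members shared 22 distinct IDR peaks, and 18 of these had the summit within 500 bp of a TSS of the host gene. Over the whole IDR list, 1098 of 2226 peaks had the summit within 500 bp of a TSS of any gene, a wider measure. A host was any protein-coding, noncoding RNA or pseudogene whose body contains the snoRNA gene on the same strand, and 247 of the 269 members had one. At these 18 peaks the median distance from summit to host TSS was 25.5 bp, and 15 lay within 100 bp. The summit was upstream of the host TSS at 13 peaks and downstream at 5. All 27 snoRNA genes at these peaks began downstream of the host TSS nearest to the summit, from 99 to 1427 bp from it (median 643 bp). At pAbp, RpS16, RpS4 and RpL27A that TSS lies inside the gene, downstream of its first annotated base. At the other hosts of these peaks the downstream order follows from the definition of a host, which contains the member on its strand. Of all 35 members, the nearest summit was upstream of 30 and downstream of 5. A TSS of another gene lay within 500 bp of 7 of the 22 summits, so a peak there cannot be assigned to the host alone. These were the summits at RpL13A, RpL14 (with Nelf-E), RpS20, RpS16, RpL17, RpL28 and Fib (with CG3085).

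**Figure D1:**
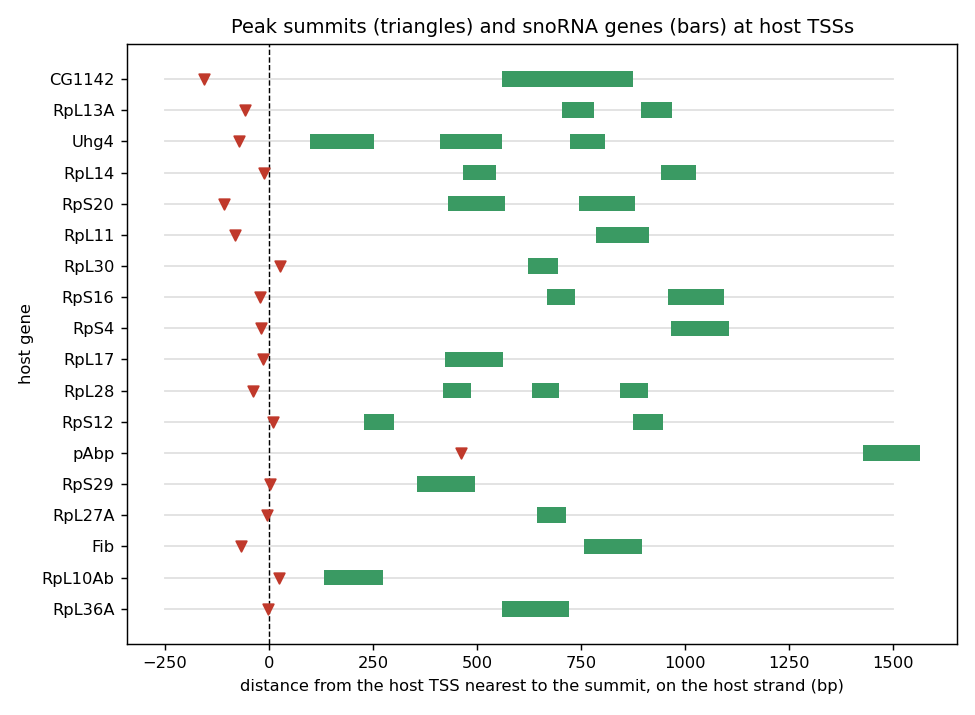
Positions at the 18 IDR peaks whose summit lay within 500 bp of a host TSS. The horizontal axis is the distance in bp from the host TSS nearest to the summit, on the host strand, each row is a host gene ordered by pooled signal, triangles are summits and bars are the snoRNA genes within 1000 bp of them. Summits sit at the dashed TSS line in most rows, with the pAbp summit 461 bp downstream of its nearest TSS. Every snoRNA gene lies to the right of the line, which in most rows follows from the definition of a host.

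Ribosomal protein genes were the hosts at 14 of the 22 peaks. The strongest was at RpL13A, which encodes a protein of the large ribosomal subunit and holds the C/D guides snoRNA:Me28S-U2134a and snoRNA:Me28S-U2134b. That peak (3R:5624349-5624530, summit 5624416, 58 bp upstream of the TSS) had a signal of 113 and rank 93 in replicate 1, and a signal of 117 and rank 265 in replicate 3, for a pooled signal of 225 at rank 174. The RpL14 peak (3L:8600871-8601046), 13 bp upstream of a TSS that lies within the pyrimidine run printed above, had signals of 101 in replicate 1 and 113 in replicate 3 (pooled 206, rank 225). It lay 480 bp from snoRNA:U49:66Da. The RpS20 peak (3R:20822008-20822116) had signals of 88.7 in replicate 1 and 109 in replicate 3 (pooled 202, rank 234) and stood near a pair of H/ACA guides, snoRNA:Psi18S-1295 and snoRNA:Psi28S-2562. All 3 stood at rank 321 or better in both replicates.

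The other ribosomal protein hosts varied in how the replicates compared. RpL30 (2L:19009224-19009376, summit in an exon 26 bp from the TSS) had a signal of 99.7 (rank 134) in replicate 1 and of 71.0 (rank 779) in replicate 3. RpS16 (2R:22606055-22606154), host to 5 snoRNA genes, had 54.3 (rank 628) in replicate 1 and 112 (rank 302) in replicate 3. RpL11 (2R:19442221-19442334), near the H/ACA guide snoRNA:Psi28S-2444, had signals of 79.4 in replicate 1 and 119 in replicate 3 and held nearly the same place in both lists, rank 263 in replicate 1 and 251 in replicate 3. RpS4 (3L:13041685-13041865) had signals of 56.8 in replicate 1 and 104 in replicate 3, and RpL17 (X:6744176-6744349) had 88.7 in replicate 1 and 66.8 in replicate 3. Replicate 3 was thus the higher at RpS16, RpL11 and RpS4 and the lower at RpL30 and RpL17. RpL28 (3L:3222926-3223098), RpS12 (3L:13023163-13023558) and RpS29 (3R:9777847-9778242) had pooled signals of 140, 133 and 109. RpL27A had a pooled signal of 89.3, and the lowest of all 22 peaks were RpL10Ab (65.4) and RpL36A (65.1), the last at rank 2225 of 2226. Replicate 1 placed RpL27A at 657 and replicate 3 at 3134, whereas RpL10Ab was 4538 in the list of replicate 1 and 1628 in that of replicate 3.

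The remaining hosts had varied functions. The highest signal of all 22 peaks, 301 at rank 84, lay 156 bp upstream of CG1142 (3R:7473799-7474058), the host of scaRNA:MeU5-C46, whose name gives the U5 spliceosomal RNA as target. Its ranks were close, 85 in replicate 1 and 92 in replicate 3, while its signal was 117 in replicate 1 and 181 in replicate 3. The noncoding host Uhg4 had a peak 73 bp upstream of its TSS (2R:9095096-9095301) with signals of 94.6 in replicate 1 and 113 in replicate 3 (pooled 213, rank 201). Uhg4 holds 7 members, and 3 of them, snoRNA:Psi28S-2949, snoRNA:Or-aca5 and snoRNA:Me28S-G3255a, lay within 1000 bp of the summit. The peak at Fib (2R:23074593-23074988, pooled 69.4) was at the promoter of the gene for fibrillarin, the methyltransferase of box C/D particles, which itself hosts snoRNA:229. The summit was 66 bp from the Fib TSS and 32 bp from that of CG3085. At pAbp, the gene for the poly(A)-binding protein, the summit lay in an intron 461 bp from the nearest TSS, an alternative one (2R:18141638-18142033, pooled 110).

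Of the 22 peaks, 4 were not at a host TSS. At Stt3A, which encodes a subunit of the oligosaccharyltransferase, the summit near snoRNA:Me28S-U3344a was 658 bp into the gene and intronic (X:21053081-21053476, pooled 88.4). The same gene had another, stronger IDR peak 397 bp from a TSS, with a signal of 358 at rank 50. In Uhg5, host to 11 snoRNA genes, the summit (2R:14624481-14624876, pooled 71.0) lay 181 bp beyond the 3′ end of the gene and within 1000 bp of snoRNA:Me28S-G2703b, snoRNA:Me28S-G2703c and snoRNA:Or-CD4. The summit near snoRNA:hts-a was in an intron of hts, the adducin gene (2R:19413170-19413565, pooled 66.8), ranked 6132 by replicate 1 and 1769 by replicate 3. The last was in an intron of egr, the gene for a tumour necrosis factor ligand, on the opposite strand to 3 clustered members that have no host on their own strand: scaRNA:MeU1b-A234, snoRNA:Or-ACA6 and snoRNA:Or-CD13 (2R:10081677-10082072, pooled 99.7). These 3 were the only members without a host, of 22, that had an IDR summit. None of the 4 peaks was among the 14 of highest pooled signal.

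**Figure D2:**
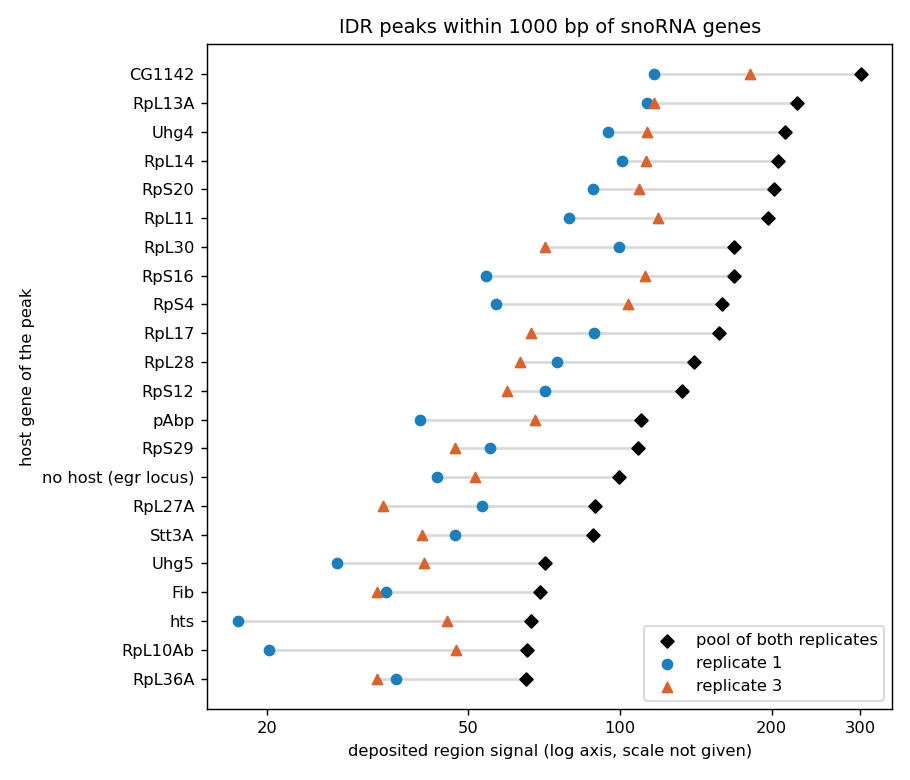
Deposited signal (horizontal log axis) of the 22 IDR peaks within 1000 bp of a snoRNA gene, in the pool (diamonds), replicate 1 (circles) and replicate 3 (triangles), named by host gene and ordered by pooled signal. Grey lines join the lowest replicate value to the pooled value, and the lists may differ in scale. CG1142 is highest in the pool at 301, and hts and RpL10Ab show the widest gaps between the replicates.

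Across the 22 peaks the replicates held the same peaks at different ranks. A region overlapped every one of the 22 in both replicate lists, and the same held for 2220 of all 2226 IDR peaks. The IDR list was derived from both replicates, so this overlap is no result about the 22. Ranks ran from 85 to 6132 in replicate 1 and from 92 to 3333 in replicate 3. The first 2226 regions of replicate 1 included 19 of the 22, those of replicate 3 also included 19, and 16 were in both. The same counts over all IDR peaks were not computed. The median log2 ratio of signal, replicate 3 over replicate 1, was 0.20 (SD 0.57 across 22 peaks), against 0.60 (SD 0.52) over all 2220 IDR peaks with a region in both lists. The ratio was above 0 at 13 of the 22. The median pooled signal was 136 over the 22 peaks and 97.5 over the whole IDR list, and 15 of the 22 were among the first 1113 peaks. Peaks of a set chosen by position are not replicates, and the difference was not tested.

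Viewed from the host genes, the promoter peaks were more frequent. The 247 hosted members lay in 95 host genes, 243 of them within an intron of at least 1 transcript, and 37 hosts, or 38.9%, had an IDR summit within 500 bp of a TSS. The same held for 1350 of 13945 protein-coding genes, or 9.68%, and for 1475 of all 18164 genes, or 8.12%. Ribosomal protein genes made up 29 of the hosts, and 21 of these 29, or 72.4%, had a summit at a TSS. Among the 59 ribosomal protein genes that host no snoRNA gene the count was 37, or 62.7%, and the difference between the 2 kinds of ribosomal protein gene was not tested. Of the 55 other protein-coding hosts 15 had a summit (27.3%), against 9.25% of the 13802 protein-coding genes that are neither host nor ribosomal. These other hosts were longer than protein-coding genes as a whole (median 5519 bp against 2166 bp) and had a median of 2 annotated TSSs against 1, and the part of length and TSS number in the difference was not tested. With 1 TSS per gene, its 5′ end, 31.6% of all hosts and 8.15% of protein-coding genes had a summit. Of the 10 noncoding hosts 1 had a summit, Uhg4 (10%), beside 100 of all 3261 noncoding RNA genes (3.07%). With so few noncoding hosts, this count is no result about them.

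**Figure D3:**
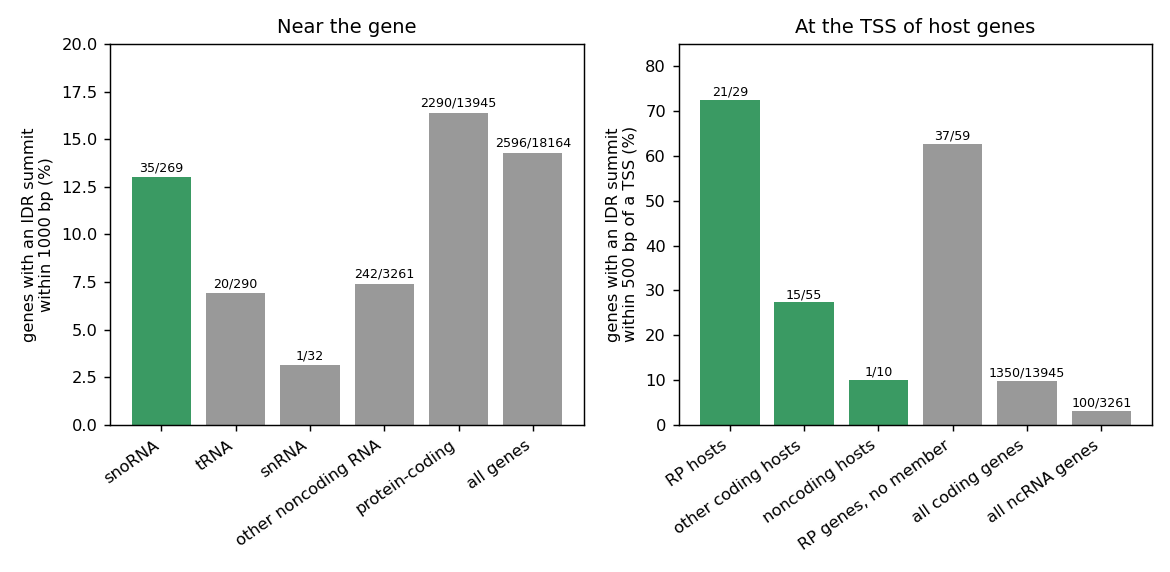
Left, percentage of genes of each class with an IDR summit within 1000 bp of the gene, with snoRNA genes in green. Right, percentage of genes with an IDR summit within 500 bp of a TSS for ribosomal protein (RP), other protein-coding and noncoding hosts in green and for comparison groups in grey. Numbers above the bars are genes with a summit over all genes of the group. The left bars put snoRNA genes at 13% and all genes at 14.3%, and the right bars put RP hosts at 72.4% and RP genes without a snoRNA gene at 62.7%.

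Among the 15 other protein-coding hosts with a summit at a TSS, 5 also had a member within 1000 bp of an IDR summit: CG1142, Fib, pAbp, Stt3A and hts. In the others the snoRNA gene lay farther away. Msp300, the nesprin gene of muscle, had a signal of 221 at a TSS, CG12316 had 175, lola, a gene for BTB zinc-finger proteins, had 131, and eEF1alpha1, the translation elongation factor gene, had 124. Others included mask (115), Dys, the dystrophin gene (103), drn (81.4), anchor (69.9) and the chromodomain remodeller gene kis (65.6). In all, 85 members had a host with a summit at a TSS, and 56 of the 85 were themselves more than 1000 bp from any IDR summit. RpS5a accounted for 14 of the 56: its promoter peak had a signal of 105 (rank 712 in replicate 1 and 1451 in replicate 3), and its 14 guides lay between 1587 and 4278 bp from the nearest summit. RpL23A, with a promoter signal of 227, held 4 guides at 1499 to 2224 bp.

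Members with a summit were mostly those close to a host TSS. Of the 35 hosted members within 500 bp of a host TSS, 11 had an IDR summit within 1000 bp, and of the 51 between 500 and 1000 bp, 15 did. Of the 76 members between 1000 and 2000 bp it was 2, and of the 85 farther away it was 4. By construction, a summit at a TSS can count only for members within the window of 1000 bp. Among the members within 500 bp, 19 had a host with a summit at a TSS and 16 did not, and all 11 with a summit were among the 19.

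Among the 5 hosts that hold the most snoRNA genes, RpS5a alone had an IDR summit at a TSS. Arpc2, which encodes a subunit of the actin-nucleating Arp2/3 complex, holds 17 snoRNA genes and had no pooled region within 500 bp of a TSS. Uhg1, with 16, had a highest pooled signal of 23.7 at rank 16117, and signals of 10.3 in replicate 1 and 15.9 in replicate 3. The chromatin remodeller gene dom, with 15, had 34.3 at rank 7489, with 32.3 in replicate 1 and no overlapping region in replicate 3. RpS5a holds 14 and is described above. Uhg5, with 11, had 41.7 at rank 5078, and signals of 12.1 in replicate 1 and 29.4 in replicate 3. Of the 15 hosts with 5 or more members, 4 had an IDR summit at a TSS (RpS5a, Uhg4, RpL28 and RpS16), or 26.7%, and of the 80 hosts with fewer members 33 did, or 41.2%. The 15 hosts held 133 of the 269 members, and 11 of these 133 were within 1000 bp of an IDR summit. The count was 35 for all 269 members, and the share of all genes was 14.3%. Neither the distance of the members from the host TSS nor the class of the host was taken into account here. Among the 15, lncRNA:CR45184 counts as a host of its own, although its 5 members also lie in Sf3b3. Uhg2, Uhg3 and Uhg8 had 38.7, 35.8 and 55.4 as their highest pooled signals at a TSS, and Uhg7, which lies within RpL23A, had none.

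**Figure D4:**
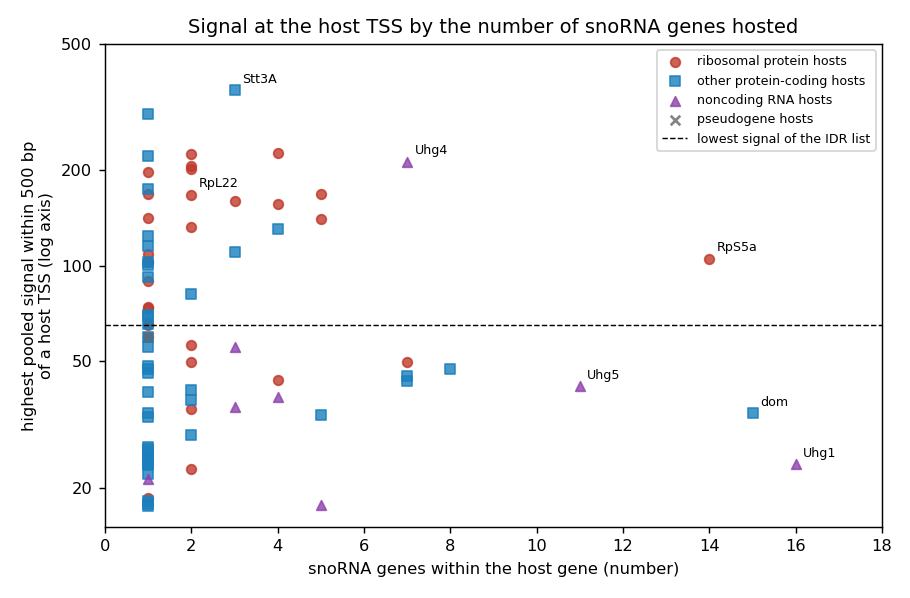
Highest pooled signal within 500 bp of a TSS (vertical log axis) against the number of snoRNA genes within the host, for the 81 hosts with a pooled region there, coloured by class of host. The dashed line is the lowest signal of the IDR list, 65.1. Uhg1, dom and Uhg5 lie below the line, while RpS5a at 105 and Uhg4 at 213 lie above it. Arpc2, which has no pooled region at a TSS, is not shown.

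In the full pooled list, 182 of the 269 snoRNA genes had a region within 1000 bp, or 67.7%, while 65.4% of all genes did. The median of the highest signal near a gene, over genes with a region, was 35.3 for snoRNA genes and 35.2 for all genes. These regions numbered 162, of which 140 were outside the IDR list, with signals from 16.7 to 62.2 and a median of 25.1. The strongest of those outside was in an intron of Arpc2 (2L:20417680-20418075, signal 62.2, within 1000 bp of 4 of its guides). The next were 7 bp from the TSS of RpS6 (X:7901126-7901521, 59.6) and beyond the 3′ end of RpS5a nearest to mei-217 and mei-218 (X:17143008-17143403, 57.8). The last of the strongest 5 were in an intron of lola (2R:10535762-10536157, 57.2) and at sta, the gene of ribosomal protein SA (X:1483166-1483561, 56.4). The sta summit was in an exon, 49 bp from the sta TSS, and a TSS of inc also lay within 500 bp. The Arpc2 region differed between the replicates, with rank 7476 in replicate 1 and 1932 in replicate 3. A pooled summit fell inside 13 of the 269 snoRNA genes, a count for which no share over all genes was computed. The strongest was in snoRNA:Psi18S-176, which has no host (2R:23839789-23840184, summit 23839987), with a signal of 51.3 at rank 3388, and rank 3395 in replicate 1 and 3953 in replicate 3. The other 12 had signals from 17.0 to 26.0. They included the U3 genes snoRNA:U3:9B (23.0) and snoRNA:U3:54Ab (20.3). U3 is a box C/D RNA that acts in the cleavage of pre-ribosomal RNA.

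The summit sequences of the 22 peaks were searched on both strands within 50 bp of the summit. TATCGATA occurred at 4 of 22 (18.2%), the peaks of RpS12, RpS29, Stt3A and RpL36A, and at 1.75% of all 2226 IDR peaks and 3.28% of the 1098 IDR peaks at any TSS. The longer promoter element GGTCACACT, known as motif 1, occurred at 1 of 22, RpL27A. It occurred at 0.674% of IDR peaks and at 1.28% of those at any TSS. The shorter GGTCAC, contained in it and added after the sequences had been seen, occurred at 5 of 22 (RpL13A, RpL30, RpS16, RpL17 and RpL27A). It occurred at 2.43% of IDR peaks and at 3.83% of those at any TSS. The homeodomain core TAATTA occurred at 0 of 22 and at 7.73% of IDR peaks, and TATAAA at 0 of 22 and 16.6%. GAGAG occurred at 1 (Fib, against 10.4%) and CAGCTG at 1 (RpS16, against 4%). The 101 bases around the summit ranged from 18.8% G and C at CG1142 to 54.5% at RpS16 and RpS4. A missing match says only that these letters are not in the window. At CG1142, the printed promoter holds GGTCACACT, but the summit was 156 bp upstream of the TSS and the match lay outside the window.

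A pyrimidine run of 8 or more bases, the criterion used for the printed promoters, was counted over all annotated TSSs of a gene in the same 80 bases, and ribosomal protein hosts had a median of 2 TSSs against 1 for all protein-coding genes. It was present in 28 of 29 ribosomal protein hosts (96.6%) and in 52 of the 59 ribosomal protein genes without a snoRNA gene (88.1%). Ribosomal protein genes of the fly are known for a pyrimidine-rich initiator in place of the common one. The run was also present in 8 of 10 noncoding hosts, in 16 of 55 other protein-coding hosts (29.1%) and in 18.1% of all protein-coding genes. At any TSS, all 21 ribosomal protein hosts with an IDR summit at a TSS had the run, and so did all but 1 of the 8 without a summit. At the TSS nearest to the summit alone, 9 of the 12 ribosomal protein hosts of these peaks outside arm 2R had it, and RpL30, RpS29 and RpL36A did not. The part of the TSS number in these shares was not tested. Of all 1350 protein-coding genes with an IDR summit at a TSS, 29.9% had it. The length of 8 was chosen after the sequences had been seen.

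The genes of proteins that work with snoRNAs had a share of promoter peaks near that of all protein-coding genes. Of 21 listed genes 2, or 9.52%, had an IDR summit within 500 bp of a TSS, beside the 9.68% given above. These were Fib and NHP2, a core protein of H/ACA particles, whose peak had a signal of 82.8 at rank 1844 in replicate 1 and 1515 in replicate 3. All 21 had a pooled region at a TSS, beside 7141 of all 13945 protein-coding genes, in a list that reaches down into background. For the other C/D core proteins the highest pooled signals were 43.2 at hoip, 43.0 at Nop56 and 22.1 at nop5. For the H/ACA core they were 45.0 at Nop60B, the pseudouridine synthase gene that hosts 7 snoRNA genes, 44.7 at Nop10 and 36.7 at Gar1. Among assembly factors rept had 59.6, the nucleolar chaperone gene Nopp140 had 50.4, pont 44.6, spag 41.2, CG8435 26.5 and CG10341 24.3. Rcd-1, listed under an older symbol, had 17.1, and it encodes a subunit of the CCR4-NOT complex rather than an assembly factor. It was nevertheless kept among the 21 listed genes in the counts. Among processing genes Rrp6 of the nuclear exosome had 59.4, the exonuclease gene Rat1 47.4, Dis3 33.3, the debranching enzyme gene ldbr 33.3, pcm 29.3 and U3-55K 19.96.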

How the data were processed

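The analysis began from region lists in build dm6. Per the deposited text descriptions, the authors called peaks and background for each replicate, and for the pool, from alignments with a control, and derived optimal IDR peaks from these lists. The sources used here name no aligner, caller or IDR threshold. The deposited signal of each region (column 7) was used for ranks and values, and the deposited −log10 q-value (column 9) only for 1 alternative list. Depth is unknown, so no counting intervals were given. The dm3 lists were not used here. Genes came from Ensembl release 115 (BDGP6, transposable elements left out), sequence from the RefSeq release 6 genome.

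Summits (start plus offset) were assigned to genes within 1000 bp and to TSSs within 500 bp of any transcript start. Replicate values are those of the overlapping region of highest signal. Ribosomal protein genes were taken by symbol (RpL and RpS without "-like" copies, and sta). All IDR peaks near a member were named, with values per replicate for the 10 of highest pooled signal and for the 5 hosts of most members, along with members at the edge of the window, members without a host, and the 5 strongest other pooled regions. Further hosts, and the tRNA genes, were chosen with their values in view. The members and lists, and the snoRNA protein list, were chosen with earlier results of these data known. The 2 replicates are biological per the labels, but whether they came from separate collections is not given. No test was run. Distances were computed in Python 3.11.15 with pandas 2.3.3 and numpy 2.4.6 and checked against a plain loop on simulated data.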

Additional observations from a re-analysis of the deposited data

How the results depend on the processing

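The counts depended most on the window. With 0 bp, 0 members, 0 peaks and 0 peaks at a host TSS were found, against 6.1% of all genes. With 500 bp they were 10, 9 and 7, and the members' share was 3.72%, against 12.2% of all genes. With 2000 bp they were 74, 37 and 28, and the shares were 27.5% and 18.1%, so the order of members and all genes turned with the window. It turned also in the upper part of the IDR list (9.67% and 7.82%) and when any base of a region counted (16% and 15.1%), and the cause was not tested. Without 1 replicate, using the 2226 highest regions of the other, the count of members was 37 to 38, of peaks 22 to 23, of peaks at a host TSS 16 to 20, of hosts 31 to 41, and of members with any region 170 to 180. The host share stayed above that of protein-coding genes in every alternative run, at 28.4% against 5.18% in the upper part of the IDR list and 45.3% against 13.5% for all regions of maximal q-value. Members with any pooled region numbered 13 with 0 bp and 110 with 500 bp. For members with any region, the shares of all genes at these windows and without 1 replicate were not computed. Of the 21 snoRNA protein genes, those with a summit numbered 0 in the upper part of the IDR list and 4 with all regions of maximal q-value. They numbered 2 to 4 without 1 replicate and 1 with a TSS distance of 200 bp. In the same order, the shares of all protein-coding genes were 5.18%, 13.5%, 9.51% to 9.95% and 6.55%. With so few listed genes, these counts are no result about the list. The setting of 1 TSS per gene was added after seeing the data. No paired analysis was possible because the series holds 1 group.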

Other observations

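The strongest peak of the set, at CG1142, stood near other small RNA genes. Its summit was 616 bp from snRNA:7SKa, a gene of the 7SK RNA that restrains the elongation factor P-TEFb, and 1805 bp from tRNA:Val-CAC-2-3. The RpL17 summit was 219 bp from tRNA:Phe-GAA-1-2, and a region near a hostless member on 2R, outside the IDR list with a signal of 52.1, had its summit 78 bp from tRNA:Glu-TTC-1-5 (ranks 12240 in replicate 1 and 2200 in replicate 3).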
